A study of Rattus norvegicus with 4 samples.

Results

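Thymosins, ezrin family proteins and the other actin binders described here were compared between 2 Dunning rat prostate tumour lines, MAT-LyLu and G. The set comprised 10 genes: Tmsb4x, Tmsb10, Pfn1, Cfl1, Ezr, Msn, Rdx, Actn4, Pxn and Marcks. These genes were chosen by their measured signals in this same comparison, with earlier results of these arrays known, so their differences are given as a description and not as a test. All probe sets annotated to the 10 symbols were taken, which gave 17 of the 8740 rat probe sets and 9 of 5147 annotated genes. No probe set was annotated to Rdx, the radixin gene, which was not analysed here.

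The study hybridised biotinylated cRNA from total RNA to Affymetrix arrays, 2 of MAT-LyLu and 2 of G, 4 arrays in all. MAT-LyLu is labelled as highly metastatic and G as non-metastatic, and the design names G as the control. Both derive from the Dunning R3327 tumour, no treatment is named for either, and each line is a single cell line. The labels number the arrays of each line 0 and 1 and name no separate cultures, so the spread between them may be technical. Signals are linear MAS5 units, and the number of arrays limits their precision.

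Actin alternates between a pool of monomers and filaments. Beta-thymosins hold monomers in reserve, profilin exchanges their nucleotide and feeds them to growing ends, and cofilin severs old filaments and returns monomers to the pool. Ezrin, radixin and moesin tie filaments to the plasma membrane, alpha-actinin crosslinks them, paxillin is a scaffold of focal adhesions where filaments meet integrins, and MARCKS binds actin and the inner face of the membrane under control of protein kinase C and calmodulin. In tumour cells these proteins are known for their part in cell shape, adhesion and movement.

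The promoters of 4 genes are shown, because each pair of relatives, the 2 thymosin genes and the 2 ezrin family genes, differed unequally between the lines in the values below. Each runs from 250 bases before to 50 bases after the annotated start, 5' to 3' on the gene's strand, in RefSeq's GRCr8 build: Tmsb4x at chrX:30761361-30761660 (+), Tmsb10 at chr4:106569091-106569390 (-), Ezr at chr1:49416524-49416823 (-) and Msn at chrX:65005296-65005595 (+). Capitals mark GGGCGG, the GC box, and CCAAT, each on either strand.
Tmsb4x: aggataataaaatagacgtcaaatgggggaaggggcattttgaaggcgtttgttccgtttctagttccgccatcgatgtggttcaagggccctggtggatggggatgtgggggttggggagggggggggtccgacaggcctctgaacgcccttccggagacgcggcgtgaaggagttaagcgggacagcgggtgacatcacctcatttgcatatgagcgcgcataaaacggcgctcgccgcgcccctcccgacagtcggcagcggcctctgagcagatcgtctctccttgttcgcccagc
Tmsb10: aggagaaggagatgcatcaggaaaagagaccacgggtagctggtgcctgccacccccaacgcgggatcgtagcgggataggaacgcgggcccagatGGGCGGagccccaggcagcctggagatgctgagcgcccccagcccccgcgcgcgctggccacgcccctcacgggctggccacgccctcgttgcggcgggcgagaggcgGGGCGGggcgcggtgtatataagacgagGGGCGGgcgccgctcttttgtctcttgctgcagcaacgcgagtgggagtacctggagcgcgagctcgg
Ezr: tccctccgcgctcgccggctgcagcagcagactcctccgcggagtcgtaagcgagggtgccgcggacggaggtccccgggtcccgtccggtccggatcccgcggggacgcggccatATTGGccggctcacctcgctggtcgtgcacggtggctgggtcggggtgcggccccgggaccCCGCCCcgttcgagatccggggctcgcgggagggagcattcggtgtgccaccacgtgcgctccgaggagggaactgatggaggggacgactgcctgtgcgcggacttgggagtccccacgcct
Msn: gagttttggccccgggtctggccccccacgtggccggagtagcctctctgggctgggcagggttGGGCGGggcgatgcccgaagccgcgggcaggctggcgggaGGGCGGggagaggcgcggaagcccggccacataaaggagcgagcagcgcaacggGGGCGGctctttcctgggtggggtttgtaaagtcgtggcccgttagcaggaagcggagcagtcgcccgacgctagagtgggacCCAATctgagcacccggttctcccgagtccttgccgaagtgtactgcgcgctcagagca

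RefSeq held promoters for 9 of the 10 genes (all but Actn4), 10 sequences with 2 starts for Pxn. Beside the GC box GGGCGG and the box CCAAT, the search took in the TATA box TATAAA, the AP-1 site TGACTCA and the CArG box of serum response factor, on both strands. No match to one motif overlapped a match to another in the windows shown. GGGCGG lay in 6 of the 10 sequences, against 33.1% of all 33469 promoters in the table, and CCAAT in 6, against 37.5%. The Pxn windows overlap, and the same CCAAT is counted in both. The exact run TATAAA was in 0 of the 10, against 14.2% of all promoters, the AP-1 site in 0, against 4.63%, and the CArG box in 0, against 1.64%. Other forms of the TATA box were not searched. The Tmsb10 window holds the run tatataag, and the Tmsb4x and Msn windows hold the run cataaa. The Tmsb4x window held none of the 5 motifs, while the Tmsb10 window held GGGCGG 3 times with no CCAAT. The Ezr window held 1 of each, and the Msn window GGGCGG 3 times and CCAAT once. G and C made up 60.0% of the Tmsb4x window, 70.0% of Tmsb10, 73.3% of Ezr and 68.7% of Msn, with a median of 51.7% over all promoters. A match is a run of letters, and binding was not measured.

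Of the 17 probe sets, 12 lay higher on both MAT-LyLu arrays than on both G arrays, 2 lay lower and 3 overlapped. Over all 8740 rat probe sets the shares were 27.9% higher and 36.3% lower. A filter that left out the 25% of probe sets with the lowest mean removed 3 of the 17, 2 of Marcks and 1 of Msn, and 14 entered the fit over all 6555 probe sets (limma, adjusted p under 0.05). There 9 were called higher, 1 was called lower and 4 did not pass, beside 13.9% called higher and 20.3% called lower among all probe sets tested. The median log2 difference of the 14 was 0.73, and that of all probe sets tested was -0.03. A difference of 2-fold or more was seen for 5 of the 14, beside 8.97% of all tested. Because the set was chosen on this comparison, these counts describe it and nothing is read from them. Log2 differences below are MAT-LyLu minus G on the log2(signal + 16) scale with the standard error (SE) of that fit, and folds come from the same scale.

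**Figure D1:**
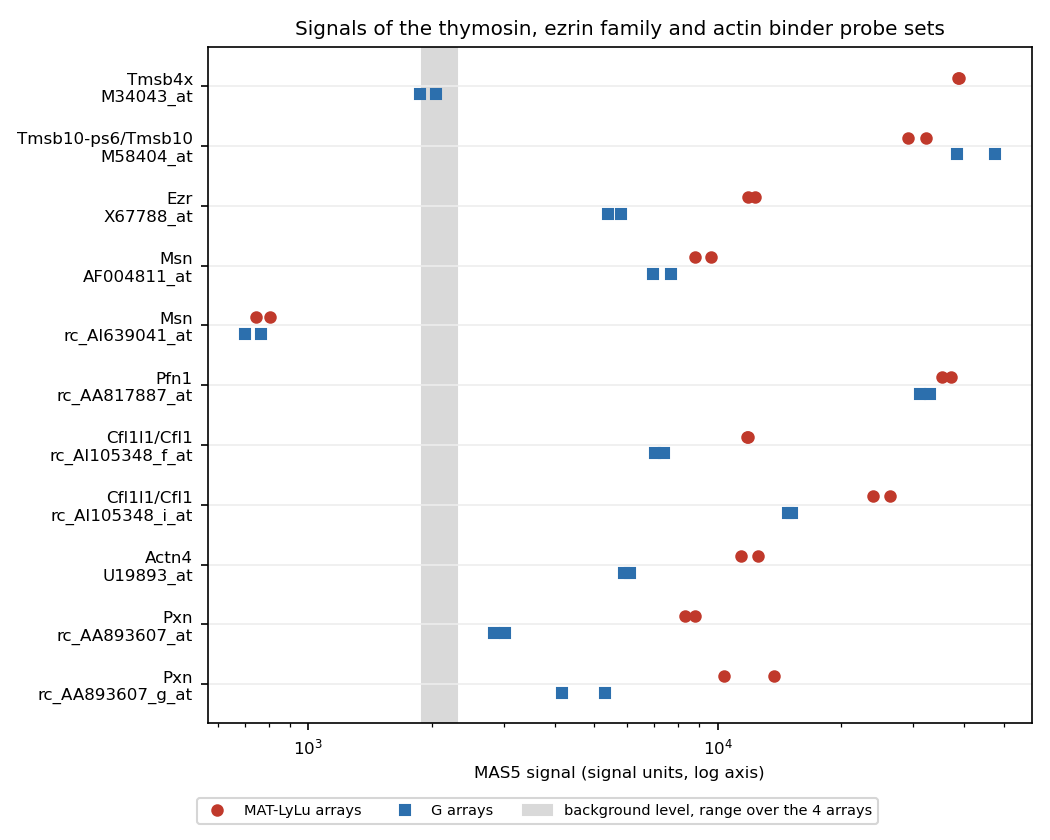
Signal (log axis) on each array for the 11 probe sets of the genes other than Marcks, MAT-LyLu circles above G squares, with the range of the background level shaded. Tmsb4x stands apart, at 38916 and 38678 in MAT-LyLu with both G arrays at the background level, and Tmsb10 is the only one of these 11 with both MAT-LyLu arrays below both G arrays.

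The thymosin probe sets went opposite ways, that of Tmsb10 being shared with a pseudogene. Tmsb4x, which encodes thymosin beta-4, the main monomer-sequestering protein of many cells, had signals of 38916 and 38678 on the MAT-LyLu arrays and 1873 and 2054 on the G arrays. The means were 38797 ± 169 in MAT-LyLu and 1963 ± 128 in G (SD, n = 2 each), so the lines were far apart and the replicates of each close. Both G values lay under the background level of their array, 1973 and 2143, which was set at the 95th percentile of 23 bacterial, yeast and mouse control probe sets. The difference is therefore a bound: Tmsb4x was at least 18.7-fold higher in MAT-LyLu. The fitted log2 difference of 4.29 (SE 0.09) rests on G signals at background and is no bound. In RNA of a whole culture, fewer cells with a transcript and less of it per cell cannot be told apart, for this gene and those below.

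Tmsb10, the gene of thymosin beta-10, shares its probe set in the annotation with a pseudogene, Tmsb10-ps6, and the signal cannot be assigned to either. This probe set read 32203 and 29217 in MAT-LyLu, against 38503 and 47479 in G. It was bright in both lines, with means of 30710 ± 2111 in MAT-LyLu and 42991 ± 6348 in G (SD, n = 2 each), and lower in MAT-LyLu without overlap. The log2 difference was -0.48 (SE 0.13), a signal 1.39-fold lower in MAT-LyLu. The G value of 47479 lay above the highest signal on any other array, which was 46422 and 45582 on the MAT-LyLu arrays and 47120 on the first G array, against 64036 on the second G array. The geometric mean of 9 bacterial and phage spike-in controls was 12338 and 12195 in MAT-LyLu, 12840 on the first G array and 16479 on the second. The part of that array in the difference was not tested further than by leaving it out, which gave -0.33. Among the scalings and the left-out arrays, the call was lost with median scaling (adjusted p = 0.063 by limma), without MAT-LyLu replicate 0 (0.11) and without MAT-LyLu replicate 1 (0.27).

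Pfn1, the profilin-1 gene, had nearly the same bright signal in both lines. It read 35242 and 37087 in MAT-LyLu, against 31200 and 33081 in G. The MAT-LyLu arrays were both higher, by a smallest gap of 0.09 on the log2 scale, near the replicate gaps of 0.07 in MAT-LyLu and 0.08 in G. The log2 difference was 0.17 (SE 0.11) and did not pass the fit, and it passed with quantile normalization at 0.27 (adjusted p = 0.0089 by limma).

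Cfl1, the gene of the non-muscle cofilin, was read by 2 probe sets made to the same transcript sequence, and both are also annotated to the related gene Cfl1l1. Names ending in _f mark a set that can match a gene family, and those ending in _i a set with fewer probes than the usual number. The _f set read 11767 and 11859 in MAT-LyLu, against 7031 and 7375 in G. The _i set read 23940 and 26441 in MAT-LyLu, against 15192 and 14826 in G. Both placed MAT-LyLu above G without overlap, 1.64-fold and 1.68-fold, and their log2 differences of 0.71 (SE 0.08) and 0.74 (SE 0.10) were 0.03 apart. Cofilin severs and depolymerises filaments, and only its transcript was measured here, not the phosphorylation that switches it off.

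The ezrin family genes were higher in MAT-LyLu by unequal amounts. Ezr, which encodes ezrin, the family member typical of epithelial microvilli, read 12355 and 11851 in MAT-LyLu, against 5808 and 5392 in G. The means of 12103 ± 356 in MAT-LyLu and 5600 ± 294 in G (SD, n = 2 each) were well separated, and the log2 difference of 1.11 (SE 0.09) is 2.16-fold. Msn, which encodes moesin, the member abundant in leukocytes and endothelium, had 2 probe sets. The brighter set read 8782 and 9635 in MAT-LyLu, against 7707 and 6960 in G. MAT-LyLu was higher without overlap, but the smallest gap between the lines was 0.19 on the log2 scale and the replicates of each line were 0.13 and 0.15 apart. Its log2 difference was 0.33 (SE 0.09), or 1.26-fold. The call was lost without MAT-LyLu replicate 1 (adjusted p = 0.19 by limma) and without G replicate 1 (0.13). The dimmer set read 745 and 804 in MAT-LyLu, against 700 and 768 in G, all under background and overlapping, so it gives no measure of Msn.

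Actn4, which encodes a non-muscle alpha-actinin that bundles filaments, read 11436 and 12556 in MAT-LyLu, against 6107 and 5899 in G. The MAT-LyLu signals were 1.99-fold higher with no overlap (log2 difference 1.00, SE 0.09).

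Pxn, the paxillin gene, had the largest difference among the tested sets after Tmsb4x and rc_AA899253_at of Marcks. Its first probe set read 8788 and 8330 in MAT-LyLu, against 3029 and 2837 in G. The second, to the same transcript sequence, read 13714 and 10342 in MAT-LyLu, against 5296 and 4166 in G. Both sets had MAT-LyLu above G on every array, 2.91-fold for the first (log2 difference 1.54, SE 0.08) and 2.53-fold for the second (1.34, SE 0.16). The replicates of the second set were further apart, by 0.41 in MAT-LyLu and 0.35 in G on the log2 scale, and the 2 sets differed by 0.20 in their log2 difference.

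**Figure D2:**
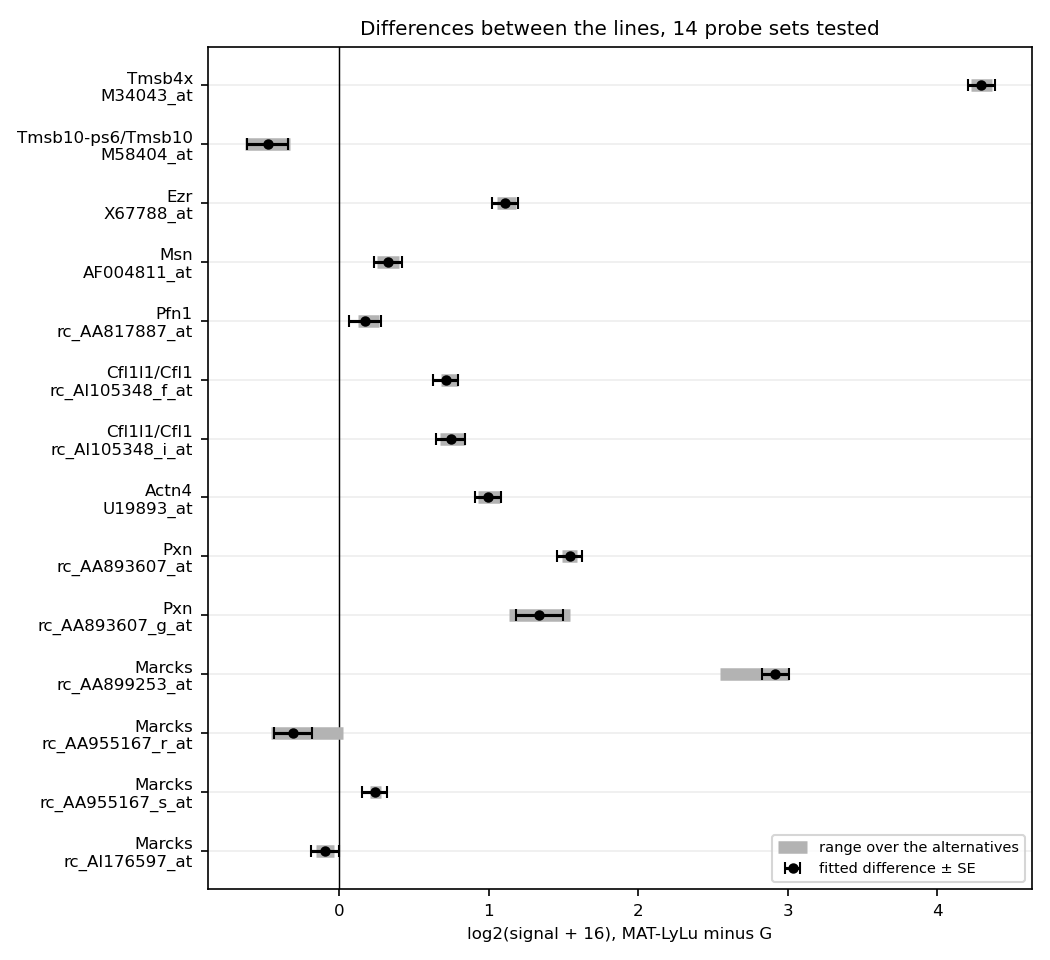
Log2 difference, MAT-LyLu minus G, with its SE (points and bars) and its range over the alternatives (grey band) for the 14 probe sets tested. The points run from -0.48 for Tmsb10 to 4.29 for Tmsb4x, and the 4 Marcks sets are spread from -0.31 to 2.92.

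Marcks was read by 6 probe sets that disagreed. The set rc_AA899253_at read 12883 and 11335 in MAT-LyLu, against 1582 and 1591 in G. Both G arrays were under background, so this set was at least 5.84-fold higher in MAT-LyLu (fitted log2 difference 2.92, SE 0.09). The set rc_AA955167_s_at was above background on all 4 arrays, at 3055 and 3198 in MAT-LyLu and 2626 and 2675 in G. It was only 1.18-fold higher in MAT-LyLu, without overlap (log2 difference 0.24, SE 0.08), did not pass the fit, and passed with quantile (adjusted p = 0.027 by limma) and median scaling (0.034).

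The set rc_AI176597_at read 2332 and 2178 in MAT-LyLu, against 2513 and 2305 in G, and the lines overlapped (log2 difference -0.09, SE 0.09). The set rc_AA955167_r_at, from the same transcript sequence as the _s set, read 1633 and 1328 in MAT-LyLu, against 1962 and 1706 in G. It was lower in MAT-LyLu without overlap (log2 difference -0.31, SE 0.13) and did not pass, but passed without MAT-LyLu replicate 0 (adjusted p = 0.043 by limma). All of its values lay under background, and with a floor at that level the difference was 0.02. The 2 sets of this sequence thus differed by 0.55 in their log2 differences and had opposite signs.

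The other Marcks sets were dim. The set rc_AA925762_at read 865 and 586 in MAT-LyLu, against 108 and 211 in G, with MAT-LyLu higher without overlap and every value under background. The set rc_AA859896_at read 233 and 153 in MAT-LyLu, against 187 and 205 in G, and the lines overlapped. No fold is given for either. Of the 6 sets, 3 placed MAT-LyLu above G, 1 below and 2 overlapped, and 1 was called higher. Their probe sequences were not used here, so which part of the transcript each one reads is not known.

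**Figure D3:**
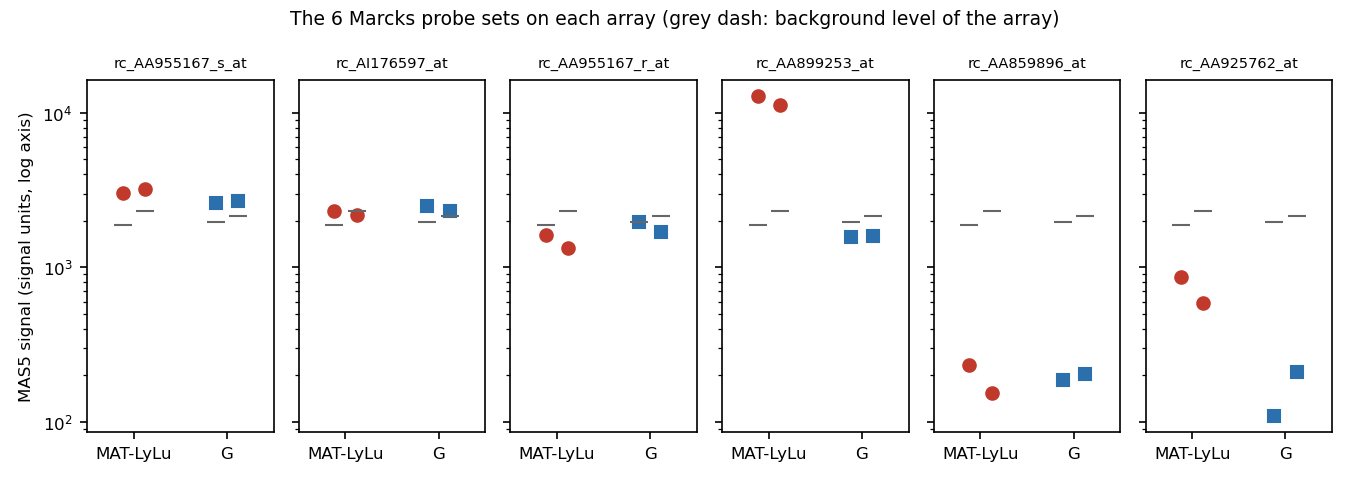
Signal (log axis) of the 6 Marcks probe sets on the 2 MAT-LyLu arrays (circles, left) and the 2 G arrays (squares, right), with each array's background level as a grey dash. In rc_AA899253_at the MAT-LyLu arrays stand far above background at 12883 and 11335, while 3 sets lie under it on every array.

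Among the 14 tested sets, none of the 9 called higher changed direction in any of the 13 alternatives, and the call was kept in each by 8 of them, Tmsb4x, Ezr, both Cfl1 sets, Actn4, both Pxn sets and rc_AA899253_at of Marcks. The exception was Msn. These alternatives reuse the arrays on which the set was chosen.

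Other genes of the actin system were taken from 8 lists of role, which were chosen with earlier results of these data known. Of 148 listed genes 85 had a probe set of their own and 76 were tested, each by its brightest tested probe set. Of these 76, 16 rose, 12 fell and 48 did not pass, with a median log2 difference of 0.04. Among all 3866 genes tested 14.1% rose and 19.7% fell, with a median of -0.02. With quantile normalization the split of the 76 was 22 higher and 9 lower, and with median scaling 20 and 9. Without MAT-LyLu replicate 1, 14 rose and 6 fell. The list medians were 0.26 for monomer binding, severing and capping, 0.10 for bundling and the membrane skeleton and 0.09 for ezrin family partners. They were 0.03 for the MARCKS family, 0.02 for nucleation, 0.01 for kinases and phosphatases, -0.0021 for focal adhesion and -0.19 for the actin isoforms. Adjusted p-values for these genes come from limma over all probe sets.

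**Figure D4:**
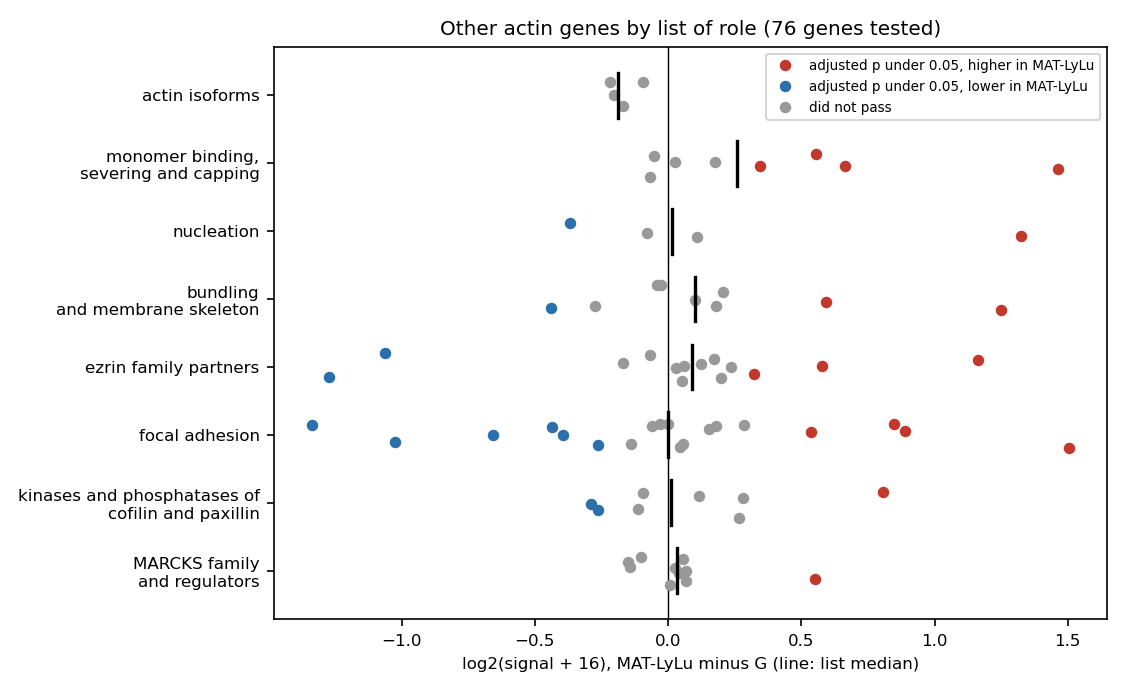
Log2 difference, MAT-LyLu minus G, of the 76 other actin genes tested, by list of role, coloured by call, with each list's median as a black line. Medians lie between -0.19 for the actin isoforms and 0.26 for monomer binding, severing and capping.

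Partners of profilin and cofilin at the monomer and the filament end included 4 rises, no fall and 4 genes that did not pass, of 8 tested. Cttn, which encodes the branch-binding protein cortactin, rose 2.76-fold (log2 difference 1.46, SE 0.08, adjusted p = 6.1e-06). Cap1, the cyclase-associated protein that recycles monomers with cofilin, rose 1.58-fold, and the capping genes Capza2 and Capg rose 1.47-fold and 1.27-fold. Leaving out either MAT-LyLu array ended the Capg call (adjusted p of 0.18 for replicate 0 and 0.12 for replicate 1). At an unadjusted p under 0.05 by limma, 0 genes of this list fell. Of 8 kinases, phosphatases and switches that act on cofilin and paxillin, Rac1, a small GTPase of protrusion, rose 1.75-fold (adjusted p = 0.00048). Limk2, a kinase that phosphorylates cofilin, fell 1.20-fold and Pak1 fell 1.22-fold. Both calls were lost with each scaling, at adjusted p from 0.053 to 0.068, and without either MAT-LyLu array. Limk2 also lost it without either G array (0.089 and 0.086), and Pak1 without G replicate 1 (0.098). Ywhaz, a 14-3-3 protein, did not pass on its brightest set, at a log2 difference of 0.27, while 1 of its 3 sets was called higher. The brightest set passed with quantile normalization (0.0021), without an intensity trend (0.045), without G replicate 0 (0.017) and without G replicate 1 (0.040).

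Of 14 ezrin family partners tested, 3 rose and 2 fell. Grk2, a receptor kinase, rose 1.49-fold on 1 of its 2 probe sets and lost its call as the mean of both (adjusted p = 0.093). Another rise, named after its value was seen, was that of Ppp1r12a, the targeting subunit of myosin phosphatase, at 1.25-fold on its brightest set (adjusted p = 0.049), with 3 of 3 sets called. That value lay at the threshold and was lost in 6 alternatives, with adjusted p up to 0.23 without G replicate 1. Vcam1 and Icam1, adhesion receptors whose tails bind ezrin family proteins, fell 2.42-fold and 2.09-fold on their brightest sets. As the mean of its 2 probe sets, both called lower, the log2 difference of Vcam1 was -2.84, against -1.27 for the brightest. Only 1 of the MAT-LyLu arrays was above background for that Vcam1 set, and 1 of the 2 Icam1 probe sets was called. The mean of the 2 Icam1 sets gave a smaller log2 difference, -0.65 against -1.06 for the brightest, and kept the call.

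Of 19 focal adhesion genes, 4 rose and 6 fell. Pdlim1, which binds alpha-actinin, rose 2.84-fold, and Ptpn12, a phosphatase that binds paxillin, rose at least 1.57-fold. The other rises were Itgb1, the beta-1 integrin gene, at 1.80-fold and Tln1, the talin gene, at 1.45-fold. Ptk2, the focal adhesion kinase gene, fell 2.03-fold, at 3170 and 2771 in MAT-LyLu against 6215 and 5881 in G (log2 difference -1.02, SE 0.09, adjusted p = 1.0e-04). The LIM protein genes Csrp2, Csrp1 and Lims1 fell 2.53-fold, 1.58-fold and 1.35-fold. The remaining falls were Arhgef7, an exchange factor that joins paxillin complexes, at 1.32-fold with 2 of 3 sets called, and Tns1, the tensin gene, at 1.20-fold. Leaving out MAT-LyLu replicate 1 (adjusted p = 0.12) or G replicate 0 (0.064) ended the Lims1 call, and that of Tns1 was lost with each scaling and each array left out (0.052 to 0.14).

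Of 9 bundling and membrane skeleton genes, 2 rose and 1 fell. Pls3, or plastin 3, rose 2.38-fold and Add1, an adducin, 1.51-fold, while the spectrin gene Sptan1 fell 1.36-fold, a call lost without MAT-LyLu replicate 1 (adjusted p = 0.061). Add3, another adducin, did not pass at a log2 difference of -0.28. It passed with a floor at background (adjusted p = 0.043), without G replicate 1 (0.034) and at 0.0496 as the mean of its sets. Of 4 nucleation genes, Arpc1b, a subunit of the Arp2/3 complex, rose 2.51-fold and Evl, of the Ena/VASP family, fell 1.29-fold on 1 of its 2 probe sets. The Evl call needed MAT-LyLu replicate 1 (0.059 when it was left out) and was absent from the mean of both sets (0.11). Wasl, at a log2 difference of 0.11, and Arpc4, at -0.08, did not pass. Of 10 genes of the MARCKS family and its regulators, the protein kinase C gene Prkcd rose 1.46-fold and 0 fell by limma, adjusted or at an unadjusted p under 0.05. Gap43, Prkcz and Nrgn were at log2 differences of -0.14, -0.15 and -0.10 and did not pass.

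Of the 4 actin isoform genes tested, each by its brightest set, 0 were called by limma, and 0 had an unadjusted p under 0.05. Actg1 was within 5% of the array's highest signal on all 4 arrays and Actb on 2, which is taken as saturated. Their log2 differences of -0.22 and -0.09 did not pass. Acta2, the smooth muscle isoform, had 3 probe sets of its own. The brightest, marked as open to its gene family, did not pass (log2 difference -0.17). The set rc_AA900769_s_at read 1119 and 1120 in MAT-LyLu, against 16259 and 10303 in G, at least 6.15-fold lower. It was called lower (adjusted p = 4.2e-06 by limma). As the mean of its sets, Acta2 was also called lower, at a log2 difference of -1.17 (5.8e-06). The remaining set, X06801cds_i_at, overlapped between the lines (log2 difference 0.17). Of the sets shared with Actc1, X80130cds_f_at, also marked as open to its gene family, went the other way. It read 14600 and 14327 in MAT-LyLu against 9905 and 9899 in G, 1.46-fold higher (adjusted p = 0.0016 by limma). The shared sets X80130cds_i_at and rc_AI104567_at overlapped between the lines, at log2 differences of -0.09 and 0.0072. The shared set rc_AI104567_g_at overlapped too and was left out by the filter. Without G replicate 0, the log2 differences of Actg1, Actb and the brightest Acta2 set were -0.41, -0.23 and -0.32. The G array then left had a highest signal of 64036, against 46422 and 45582 on the MAT-LyLu arrays. Actg1 was near these highest signals, at 61101 on that G array and 46333 and 45494 in MAT-LyLu. The part of the unequal highest signals in these differences was not tested. Actg2 did not pass at -0.20, and Acta1 and Actc1 were left out by the filter.

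Markers of cell type were set beside these values. Of 5 prostate secretory markers measured none was above background on any array. Of 5 simple epithelial markers 2 were above background on both MAT-LyLu arrays and 1 on both G arrays, with Epcam and Krt19 under it on all 4; their summed signal was 52649 and 53050 in MAT-LyLu and 13945 and 12429 in G. Krt8 alone was at 41435 and 41521 in MAT-LyLu and 1978 and 1691 in G, and made up most of the MAT-LyLu sums. Cldn3, at 7353 and 7348 in MAT-LyLu and 7733 and 7263 in G, overlapped between the lines. So did Krt18, at 1578 and 1871 in MAT-LyLu and 2015 and 1452 in G. Of 7 fibroblast markers 1 was above background on both MAT-LyLu arrays and 7 on both G arrays, with sums of 9944 and 9840 in MAT-LyLu and 147594 and 149870 in G. The fibroblast sums were higher in G, and through Krt8 the simple epithelial sums were higher in MAT-LyLu, as Tmsb4x was. Their part in the differences above was not tested. The sums of 5 smooth muscle markers were 35594 and 38087 in MAT-LyLu and 45608 and 48050 in G, without overlap. Among them only Tagln, which encodes an actin-binding protein of smooth muscle, was called, at 1.78-fold lower, and Cnn1 was under background on all 4 arrays. Acta2 was read there by its set open to the gene family, which did not pass, at 21319 and 20981 in MAT-LyLu and 21506 and 26352 in G. Its set rc_AA900769_s_at, called lower above, was not used there. Myh11 overlapped between the lines, and Des did not pass, at 2304 and 2394 in MAT-LyLu and 2299 and 2289 in G. The part of these markers was not tested either. Leukocyte and endothelial markers, of cells rich in Tmsb4x and Msn, had sums that overlapped between the lines. The sums of 7 leukocyte markers were 20679 and 21911 in MAT-LyLu and 22008 and 21397 in G, and those of 4 endothelial markers 10451 and 11058 in MAT-LyLu and 11145 and 9696 in G. The defining marker Ptprc was at 3382 and 3371 in MAT-LyLu and 3285 and 3555 in G, and Pecam1 was not above background on any array. Above background on both arrays of each line were 4 of the leukocyte and 2 of the endothelial markers. So were all 3 nerve and glia markers measured. Whether a signal above that level means expression was not tested.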

How the data were processed

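Signal intensities of 8799 probe sets on 4 arrays were deposited as one table with a column for each array; per the submitters' processing notes they were made with MAS5, with no version or scaling target given. Columns were assigned by sample and lines by title. The 2% trimmed means of the arrays differed by at most 7.83%, under a limit of 10%, so no further scaling was applied. Names came from the platform annotation, updated by gene identifier through RefSeq's GRCr8 table; 3 of the 17 probe sets described carry a second name. The 59 control probe sets and the 25% of the rest with the lowest mean were left out, and log2(signal + 16) of the other 6555 was fitted with limma 3.58.1 in R 4.3.3 (lmFit, eBayes with an intensity trend, 2-sided, Benjamini-Hochberg over all probe sets, threshold 0.05). Simulated arrays with known differences were used to check the fit. Alternatives were pseudocounts of 1 and 64, no filter, the lowest 50% left out, quantile and median scaling, no trend, the replicate number as a block, a floor at background, each array left out, and the mean of a gene's probe sets. A dim side was raised to background before an "at least" fold was taken. All 10 actin genes were given, and from each list the 4 with the smallest p (1 is not reported here), with all actin isoforms; others named (Ppp1r12a, Itgb1, Tln1, Csrp1, Arhgef7, Lims1, Tns1, and probe sets apart from the brightest) were picked after their values were seen. Genes, lists and tests were chosen with earlier results of these data known.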

Additional observations from a re-analysis of the deposited data

How the results depend on the processing

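The counts of calls stayed within 1.5 times of those reported in the alternatives run, except as follows. The single lower call among the 17 probe sets, Tmsb10, became 0 with median scaling, and leaving out 1 array gave 0 to 1 lower and 8 to 9 higher calls. Without MAT-LyLu replicate 0 and with the replicate block, the 1 lower call was not Tmsb10 but rc_AA955167_r_at of Marcks, which is under background on all 4 arrays. The 12 falls among the actin list genes ranged from 6 to 12 when 1 array was left out, with 6 without MAT-LyLu replicate 1; the cause was not tested. Arrays numbered alike share only a number in the labels: their replicate differences correlated at 0.16 over 6555 probe sets. With the replicate block the counts were 967 higher and 1421 lower over all probe sets, 9 and 1 for the members and 18 and 13 for the actin lists; Tmsb10 lost its call (adjusted p = 0.070 by limma) and rc_AA955167_r_at of Marcks gained one (0.039). Of 543 recomputed differences of named list genes, 31 lost a call and 12 gained one. No called difference changed sign, but 3 that were not called did: Actb became 0.07 with quantile normalization and 0.04 without G replicate 1, Actg1 0.02 with quantile normalization, and Arpc4 0.03 with quantile normalization and 0.04 without G replicate 0. Add3 was called with the replicate block (adjusted p = 0.024 by limma). Signals under background and near the ceiling limit the size of a difference. The folds of Tmsb4x and of rc_AA899253_at of Marcks are bounds, and Actg1 is saturated.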

Other observations

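Tmsb15b2, a gene of the thymosin beta-15 family, which was described in motile Dunning tumour sublines, was not among the chosen genes and was picked after its values were seen. Its probe set read 1510 and 1219 in MAT-LyLu, against 119 and 190 in G. The lines did not overlap, all 4 values lay under the background level of their array, and the filter left the set out of the fit, so no fold is given.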
